A study of Mus musculus with 10 samples.

Results

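The expression change between day 2 and day 2.5 of mouse embryoid body differentiation depended on doxycycline for 1495 of 14311 genes tested. Embryoid bodies are clumps of embryonic stem cells that pass through primitive streak and mesoderm stages in culture. All libraries came from iHA-Etv2 cells, which carry an HA-tagged Etv2 that doxycycline induces. The comparison used 8 of the 10 bulk RNA-seq libraries of the study, with 2 replicates of each of 4 groups: untreated at day 2, doxycycline-treated at day 2, untreated at day 2.5 and doxycycline-treated at day 2.5. The other 2 libraries, Flk1-positive treated cells of day 2.5, were left out. The labels call the 8 libraries not Flk1-positive, without saying whether the cells were unsorted or depleted of Flk1-positive cells. Neither the dose of doxycycline nor when it was added is given in the sources used here. Every treated library carried both the drug and the induced factor, so their effects cannot be told apart.

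Etv2 is an ETS-family transcription factor needed for the first endothelial and blood progenitors of the embryo. ETS proteins bind DNA around a GGAA core, and other ETS factors, among them Fli1, Erg and Ets1, keep the endothelial programme going after Etv2 declines. Flk1, the product of Kdr, is a VEGF receptor carried by the mesoderm from which these lineages arise. In the same cultures, T, Eomes and Mixl1 mark the primitive streak, and FGF signalling through ERK drives its own inhibitors, the Sprouty and Dusp proteins, together with the ETS factors Etv4 and Etv5.

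The quantity tested was the treated day change minus the untreated day change, both as log2 differences between day 2.5 and day 2. It equals the doxycycline effect at day 2.5 minus that at day 2, and is called the interaction below. Genes were called in edgeR's quasi-likelihood test at a Benjamini-Hochberg adjusted p under 0.05, which is the adjusted p given throughout. The interaction was positive for 869 genes (6.07% of those tested) and negative for 626 (4.37%), together 10.4%. Levels are CPM, counts relative to the library total and scaled for library composition, and follow each gene across samples. Each ± on a log2 value is an approximate standard error, the absolute log2 value divided by the square root of the F of the same test. Library totals ran from 18666747 to 36068329 counts.

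Most called interactions came from the treated cultures. In 656 positive and 415 negative genes (4.58% and 2.9% of all genes tested) only the treated day change was called. In 44 positive and 70 negative genes (0.307% and 0.489%) only the untreated day change was called. In 78 positive and 54 negative genes (0.545% and 0.377%) both were called with opposite signs. A further 72 positive and 76 negative genes (0.503% and 0.531%) moved the same way in both, by more with treatment, and 2 positive genes (0.014%) moved by more without it. For 17 positive and 11 negative genes (0.119% and 0.0769%) neither day change was called. These groups are a description made from the values that give the interaction, and a day change that was not called is not shown to be 0. Sorting by size also gave more treated than untreated genes. The treated change made up at least 0.75 of the interaction in 611 positive and 415 negative genes, and at most 0.25 in 33 and 46. In 225 positive and 165 negative genes it lay in between. The 2 sortings did not hold the same genes: 206 with only the treated change called lay in between. The genes at 0.75 or more took in 148 that moved the same way in both and 13 that moved in opposite directions.

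**Figure D1:**
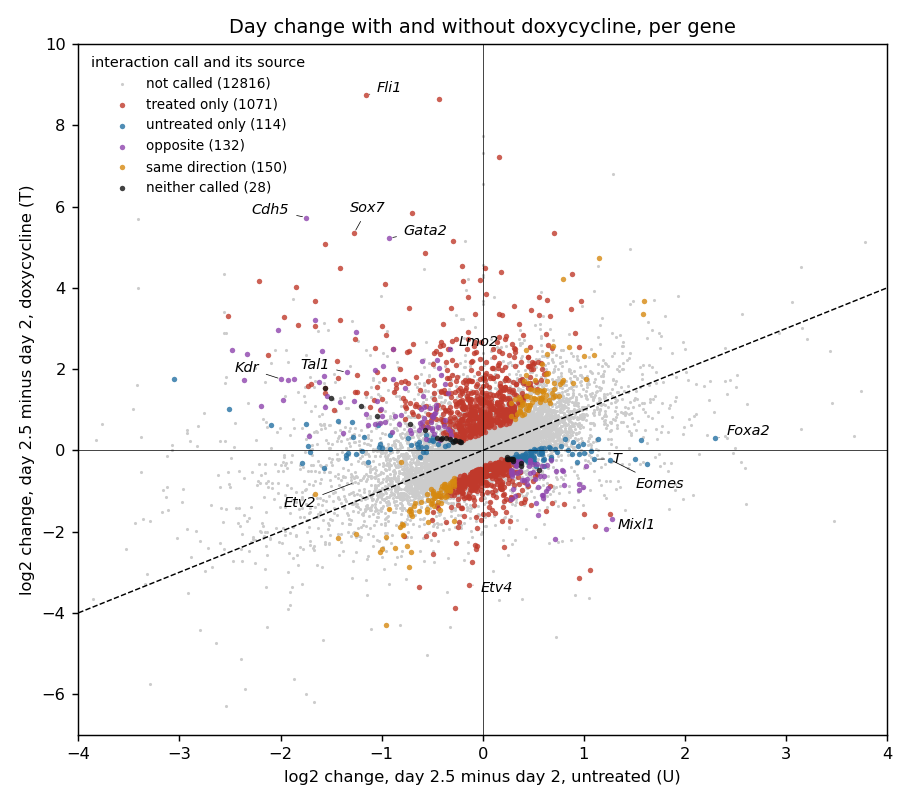
Each point is a gene, placed by its log2 change from day 2 to day 2.5 without doxycycline (horizontal) and with it (vertical); colours give the groups of called genes, grey points were not called, and the dashed line marks equal changes. The 656 and 415 genes with only a treated change called spread along the vertical axis, and 16 genes lie outside the axes.

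The middle gene of each group shows the sizes. Among positive genes with only the treated change called, the median log2 change was 1.10 with doxycycline and -0.03 without. Among negative genes of that kind it was -0.72 and -0.01. Where only the untreated change was called, the positive genes had medians of 0.14 with doxycycline and -1.01 without, and the negative genes -0.13 and 0.54. Genes that moved in opposite directions had the largest median interaction of these groups, 1.82 for positive and -1.13 for negative genes. Over all genes tested the median interaction was 3e-04.

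The number of calls changed with each library left out. Each such fit left 1 library in a group and estimated the spread between replicates from the other pairs. Its counts therefore cannot separate a change in that spread from a change in the levels. Both treated day 2 libraries stood apart from each other: their chi-square per gene was 32.3, against 3.34 to 9.71 in the other pairs. Across genes, the difference between them had a rank correlation of -0.478 with exon length, against -0.105 to 0.091 in the other pairs. Leaving out treated day 2 replicate 1 gave 1332 positive and 1745 negative calls, and leaving out replicate 2 gave 2199 and 2108. Without untreated day 2 replicate 1 or 2 the calls were 391 and 213 or 419 and 227. Without treated day 2.5 replicate 1 or 2 they were 402 and 240 or 353 and 218. Without untreated day 2.5 replicate 1 or 2 they were 470 and 380 or 434 and 275. Under all 18 alternative settings, 1 of which fitted all 10 libraries, 464 genes stayed called, 301 positive and 163 negative, and no gene called both with all 8 libraries and in an alternative changed sign. Of these, 203 positive and 90 negative genes had only a treated change called, and 68 and 47 moved in opposite directions.

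**Figure D2:**
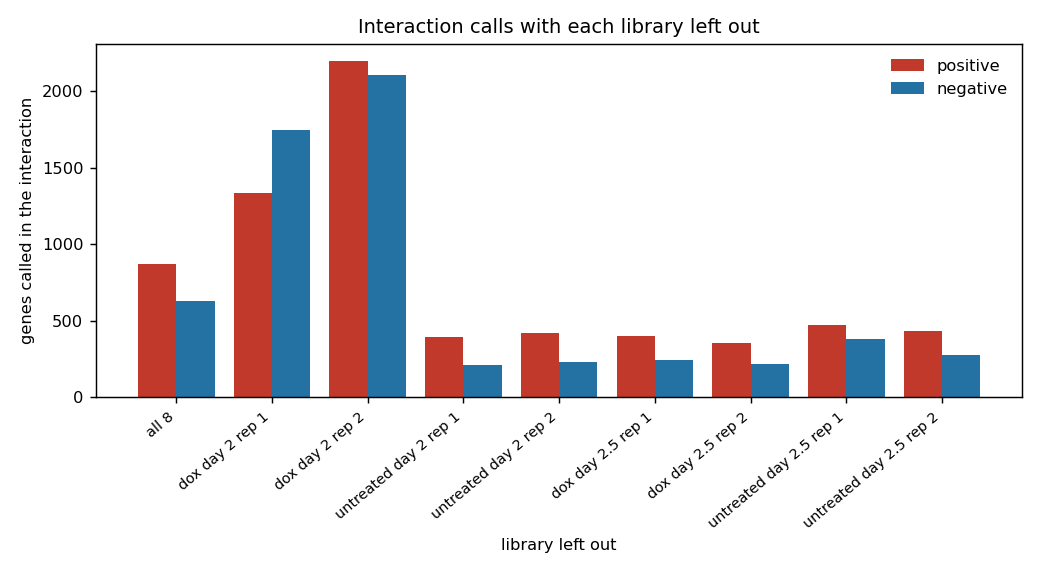
Bars give the number of genes called in the interaction, positive and negative, with all 8 libraries and with each library left out in turn. The counts rise to 2199 and 2108 without treated day 2 replicate 2 and stay at or below 470 and 380 when any of the 6 other-group libraries is left out.

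The inducible factor was measured first. Etv2 (chromosome 7, 30633616 to 30635852, GRCm38) was at 15.6 and 17.9 CPM untreated and 502 and 397 CPM treated at day 2. At day 2.5 it was at 6.48 and 7.42 CPM untreated and 269 and 253 CPM treated. Every treated library was above every untreated one, and both treated and untreated levels were lower at day 2.5 than at day 2. The day change was -0.78 ± 0.12 with doxycycline and -1.26 ± 0.15 without, both called. The interaction of 0.48 ± 0.19 was not called (adjusted p = 0.126). It was called without treated day 2 replicate 1 (adjusted p = 0.00168) and with length and GC trends removed (adjusted p = 0.014). On the CPM scale the same difference of differences was -178 CPM, of the opposite sign. Counts do not separate the induced from the resident Etv2. Among the 1495 called genes, 1 had opposite signs on the 2 scales, Irgm1, an interferon-induced GTPase named here after its values were seen, at -0.86 on the log2 scale and 0.755 CPM.

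Genes of endothelium and of early blood made up the clearest positive group. Of 35 endothelial genes tested, 27 had a positive interaction and 1 a negative one, with a median of 2.10 against 3e-04 over all genes, and of 1.95 over the 28 with at least 10 counts in each group. In 17 of the 27 only the treated change was called, in 9 the treated change was up and the untreated change down, and 1 rose in both. From day 2 to day 2.5, 29 of the 35 rose with doxycycline, where 22.4% of all genes rose and 22.5% fell, and 10 fell without it, where 8.5% rose and 9.43% fell. Of 19 haematopoietic genes 9 were positive and none negative, with a median of 2.05, or 1.65 over the 14 with at least 10 counts in each group (0 negative also at unadjusted p under 0.05 and in DESeq2 and limma-voom, and 1 without treated day 2 replicate 2). The 35 and 19 genes tested include members with under 10 counts in a group, and calls were not counted without them. Such a gene can pass the count filter through the treated day 2.5 libraries alone, and its positive call is then no separate support. In bulk RNA, more cells of a type and more RNA per cell cannot be told apart.

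Kdr (chromosome 5, 75932827 to 75978458) shows a difference built by both arms. It was at 28.1 and 28.8 CPM untreated and 98.5 and 148 CPM treated at day 2, then at 6.95 and 7.33 CPM untreated and 401 and 429 CPM treated at day 2.5. The 4 groups did not overlap, and the treated and untreated cultures moved away from each other in opposite directions. The treated change was 1.75 ± 0.15 and the untreated change -1.99 ± 0.18, which gives an interaction of 3.74 ± 0.23 (adjusted p = 1.45e-06).

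The blood and endothelial transcription factors differed in how much of the treated rise was already present at day 2. Gata2 (chromosome 6, 88193891 to 88207032), a zinc-finger factor of blood progenitors, was at 3.67 and 3.24 CPM untreated and 5.88 and 3.66 CPM treated at day 2, and at 2.06 and 1.60 CPM untreated and 174 and 182 CPM treated at day 2.5. Its treated day 2 libraries were near the untreated ones, and its interaction was 6.15 ± 0.30 (adjusted p = 2.4e-07). Tal1 (chromosome 4, 115056426 to 115071755), the basic helix-loop-helix factor that starts the blood programme, was at 2.22 and 3.07 CPM untreated and 50 and 46.3 CPM treated at day 2. By day 2.5 it was at 0.815 and 1.23 CPM untreated and 175 and 189 CPM treated. Tal1 was therefore already high in both treated libraries of day 2, rose further by 1.92 on the log2 scale while the untreated level fell by 1.34, and had a smaller interaction of 3.26 ± 0.27 (adjusted p = 1.29e-05). Lmo2, the adaptor protein that bridges Tal1 and GATA factors, went from 54.1 and 55.2 CPM to 308 and 303 CPM with doxycycline. Without doxycycline it was at 8.63 and 8.14 CPM, then 6.65 and 6.56 CPM, a change just short of the threshold (adjusted p = 0.0512). Its interaction was 2.83 ± 0.14 (adjusted p = 2.58e-07).

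Some endothelial regulators and other genes were close to undetected in untreated cultures. Fli1, Erg and Cdh5 were so in treated cultures of day 2 as well. Fli1, an ETS factor, had 14 counts in the untreated and 9 in the treated libraries of day 2, summed over both replicates. At day 2.5 it had 7 untreated and 6650 treated counts. Erg, its close relative, had 6, 1, 5 and 819 counts in the same order. Cdh5, the adherens junction cadherin of endothelium, had 24, 23, 8 and 2088 counts, so none of these 3 genes was higher in treated than in untreated cultures at day 2. The call of Erg was lost without untreated day 2 replicate 1 (adjusted p = 0.0768). Also with under 10 counts in a group, the adhesion receptor Gpr116 had 19, 49, 8 and 1877 counts. Rcsd1, an actin capping protein partner, had 15, 96, 4 and 1273. The protocadherin Pcdh12 had 20, 691, 8 and 2350 counts, and its call was lost in 5 of the 8 leave-one-out fits, with adjusted p up to 0.258 without untreated day 2 replicate 1. Rcsd1 and Pcdh12 were already higher with doxycycline at day 2, and both effects were called (adjusted p = 0.000828 and 1.92e-06). Fitted fold changes of genes with so few counts in a group depend on the prior count and are not given. For 31 of the 1495 called genes a group had under 10 counts. Myct1, picked after its values were seen, was at 12.7 and 12.9 CPM in treated day 2.5 libraries and at 0 in all 4 day 2 libraries, where the log2 interaction could not be estimated.

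Other endothelial and blood regulators repeated the late pattern. Sox7, a SOX factor of nascent endothelium, was at 0.897 and 0.270 CPM untreated and 0.841 and 1.88 CPM treated at day 2, and at 0.0858 and 0.410 CPM and 51.8 and 58.4 CPM at day 2.5 (interaction 6.62 ± 0.83, adjusted p = 0.000353). Cbfa2t3, a corepressor that joins Tal1 complexes, was at 0.812 and 0.270 CPM, 0.514 and 0.577 CPM, 0.3 and 0.615 CPM, and 18.4 and 20.6 CPM in the same order. The day 2 levels of both genes overlapped between treated and untreated cultures, and both were far above that only in treated day 2.5 libraries among these 8. The SOX factor Sox6, the vessel Wnt coreceptor Gpr124 and the endosomal sodium-proton exchanger Slc9a9 had interactions of 4.74 ± 0.74, 4.24 ± 0.38 and 4.20 ± 0.64. Zfpm1, the GATA cofactor FOG1, was at 16.1 and 14.6 CPM untreated and 14.7 and 14.5 CPM treated at day 2, and at 11 and 11.5 CPM and 66.7 and 69.9 CPM at day 2.5 (2.68 ± 0.17, adjusted p = 2.4e-06).

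Receptors and ligands included the 1 negative endothelial gene. Plxnd1, a semaphorin receptor, was at 14.7 and 12.8 CPM untreated and 34.0 and 39.2 CPM treated at day 2, and at 12.7 and 10.2 CPM and 235 and 250 CPM at day 2.5 (3.0 ± 0.18, adjusted p = 1.38e-06). Nrp2, a coreceptor for VEGF and semaphorins, rose with doxycycline from 60.4 and 84.3 CPM to 253 and 268 CPM and fell without it from 62.9 and 63.2 CPM to 47.6 and 47.0 CPM (2.26 ± 0.18, adjusted p = 1.11e-05). Apln, which encodes the ligand apelin, moved the other way: 73.9 and 72.6 CPM untreated and 26.7 and 30.2 CPM treated at day 2, 115 and 98.8 CPM and 9.45 and 9.56 CPM at day 2.5. Its treated libraries were the lower ones on both days, and its interaction was -2.12 ± 0.16 (adjusted p = 6.61e-06).

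**Figure D3:**
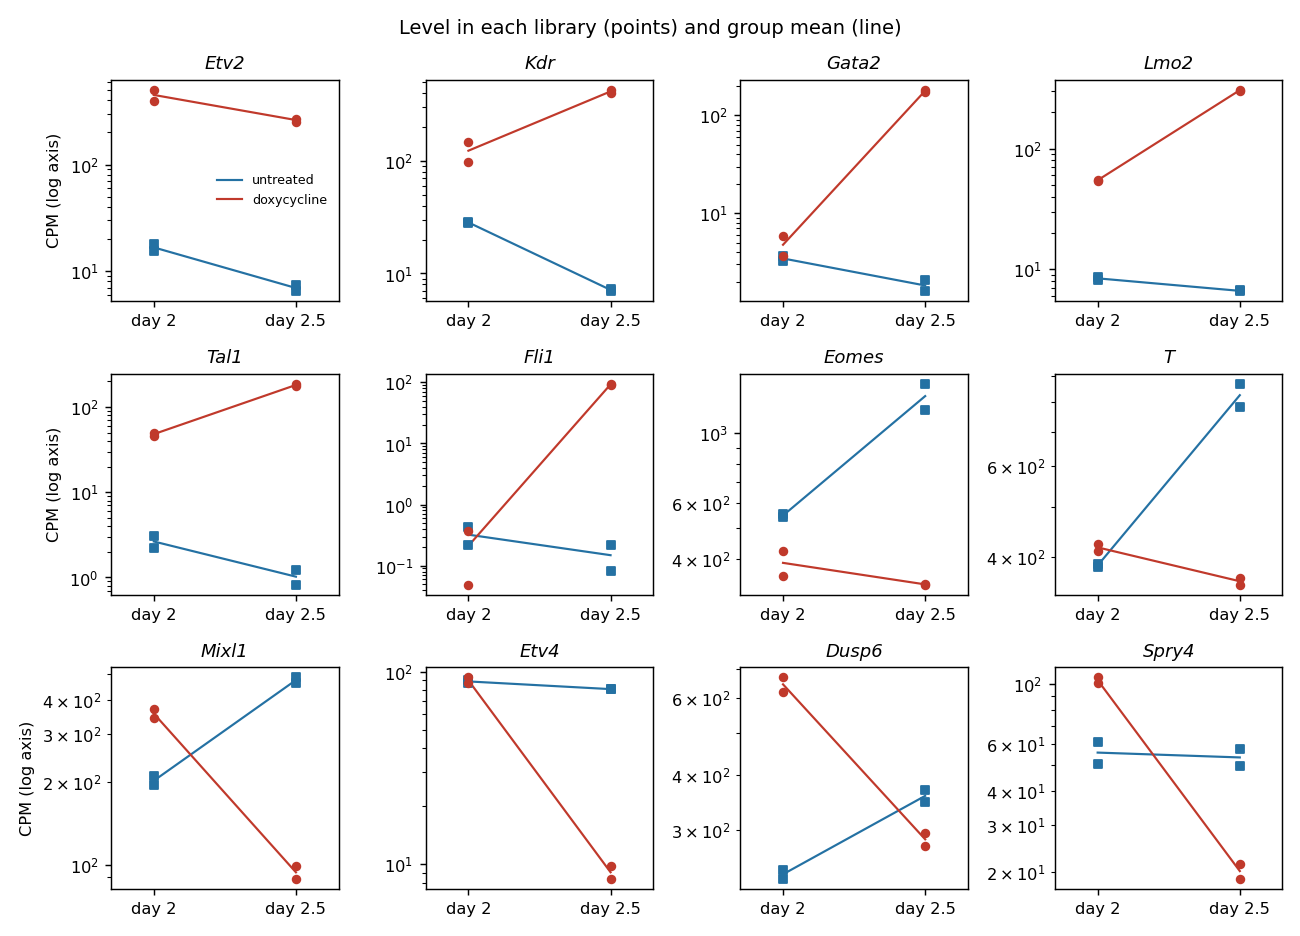
Points are the CPM of each library on a log axis for 12 genes, 2 libraries in each of the 4 groups, and short lines are group means. Kdr, Gata2, Lmo2, Tal1 and Fli1 reach their highest level in treated cultures of day 2.5, while Eomes, T and Mixl1 reach theirs in untreated cultures of day 2.5.

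Primitive streak and mesendoderm genes formed the clearest negative group. Of 26 tested, 17 had a negative interaction and none a positive one (0 also at unadjusted p under 0.05 and in DESeq2 and limma-voom), with a median of -1.30. Their sources were mixed: in 5 only the treated change was called, in 5 only the untreated change, and in 7 the untreated level rose while the treated level fell. Over the 26 genes, 12 rose and none fell without doxycycline, while 13 fell and none rose with it.

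The 5 streak genes with only an untreated change called were Eomes, T, Foxa2, Sp5 and Snai1. Eomes, a T-box factor of streak and endoderm, was at 555 and 542 CPM untreated and 353 and 423 CPM treated at day 2, and at 1188 and 1439 CPM and 333 and 330 CPM at day 2.5. T, the T-box factor Brachyury, was at 383 and 387 CPM, 411 and 424 CPM, 781 and 868 CPM, and 365 and 353 CPM in the same order. For both, the untreated level rose, by 1.26 and 1.10 on the log2 scale, and the treated change was -0.23 (adjusted p = 0.109) and -0.22 (adjusted p = 0.0511), not called. The interactions were -1.49 ± 0.15 for Eomes and -1.32 ± 0.12 for T (adjusted p = 7.42e-05 and 2.76e-05). Snai1, a repressor of epithelial genes, went from 39.6 and 38.5 CPM to 73.9 and 77.2 CPM without doxycycline and from 38.5 and 34.9 CPM to 33.2 and 36.3 CPM with it (-1.03 ± 0.15). Sp5, a direct Wnt target, was at 52.4 and 50.4 CPM treated at day 2 and 52.6 and 49.7 CPM treated at day 2.5, and went from 91.9 and 97.2 CPM to 176 and 220 CPM without treatment. Foxa2, a forkhead factor of streak and endoderm, rose without doxycycline from 5.30 and 5.39 CPM to 24.2 and 28.5 CPM, and went from 4.76 and 10.2 CPM to 9.78 and 8.56 CPM with it. Its call (-2.01 ± 0.38, adjusted p = 0.00551) was lost without untreated day 2.5 replicate 2 (adjusted p = 0.0509).

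Other streak genes rose in untreated and fell in treated cultures. Mixl1, a homeobox factor, was at 210 and 195 CPM untreated and 344 and 370 CPM treated at day 2, and at 463 and 484 CPM and 98.7 and 88.7 CPM at day 2.5. The treated libraries were the higher ones at day 2 and the lower ones at day 2.5, with no overlap on either day (-3.15 ± 0.13, adjusted p = 6.62e-08). Fst, the activin antagonist follistatin, was at 277 and 276 CPM, 168 and 168 CPM, 416 and 413 CPM, and 81.4 and 74.2 CPM in the order untreated and treated at day 2, then day 2.5 (-1.69 ± 0.12, adjusted p = 4.59e-06). The Wnt ligand Wnt8a, the growth factor Fgf17 and the Wnt antagonist Frzb had interactions of -1.66 ± 0.17, -2.97 ± 0.31 and -2.90 ± 0.27. Mesp1, the factor of nascent mesoderm, was at 23.2 and 20 CPM, 14.2 and 7.60 CPM, 19.7 and 21.4 CPM, and 2.75 and 1.55 CPM in that order, so its difference lay in the treated fall (-2.27 ± 0.40, adjusted p = 0.00344). Paraxial mesoderm genes had 0 of 9 calls, with 0 positive and 1 negative at unadjusted p under 0.05 and 0 in DESeq2 and limma-voom.

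Genes whose untreated level fell with no called treated change were fewer, and many of these calls were fragile. Spna1, the alpha spectrin of the membrane skeleton, was at 28.7 and 33.2 CPM untreated and 24.3 and 34.6 CPM treated at day 2, and at 9.61 and 9.22 CPM and 26.7 and 30.9 CPM at day 2.5 (1.68 ± 0.24, adjusted p = 0.000871). Tmsb4x, an actin-binding thymosin, was at 49.1 and 55.1 CPM, 67.6 and 44.6 CPM, 22.6 and 20.3 CPM, and 71.9 and 68.4 CPM in the same order (1.60 ± 0.23, adjusted p = 0.000875). In both genes the untreated day 2.5 libraries were the low ones and the other 3 groups overlapped or lay close together. The calls of Cdh20, Col6a5, Kitl and Laptm5, also in this group, were each lost without single libraries, with adjusted p up to 0.153, 0.103, 0.103 and 0.164.

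FGF and ERK feedback genes split, with 8 of 21 negative and 4 positive and a median of -0.34. Etv4, an ETS factor that ERK signalling induces, was at 87.4 and 90.4 CPM untreated and 93.3 and 86.8 CPM treated at day 2, and at 81.3 and 80.9 CPM and 8.42 and 9.79 CPM at day 2.5. Only the treated day 2.5 libraries were low (-3.17 ± 0.15, adjusted p = 1.63e-07). Its relatives Etv5 and Etv1 went from 354 and 354 CPM to 105 and 106 CPM and from 30.2 and 32.9 CPM to 11.6 and 10.3 CPM with doxycycline, with interactions of -1.47 ± 0.12 and -1.75 ± 0.16. Spry4, a Sprouty inhibitor of receptor tyrosine kinase signalling, was at 60.8 and 50.4 CPM untreated and 101 and 106 CPM treated at day 2, and at 57.1 and 49.5 CPM and 21.5 and 18.9 CPM at day 2.5 (-2.29 ± 0.17, adjusted p = 6.61e-06). Dusp6, the phosphatase that turns off ERK, was at 243 and 231 CPM, 669 and 621 CPM, 369 and 348 CPM, and 295 and 275 CPM in the same order (-1.77 ± 0.12, adjusted p = 4.42e-06). For Spry4 and Dusp6 the treated libraries were above the untreated ones at day 2 and below them at day 2.5. Across the ETS family, 5 of 21 genes were positive and 3 negative. Positive calls numbered 3 without untreated day 2 replicate 1 and 9 without treated day 2 replicate 2, and negative calls 5 without treated day 2 replicate 1. The positive Ets1, a factor of the same family active in endothelium, was at 11.1 and 15.9 CPM treated at day 2 and 77.1 and 75.4 CPM treated at day 2.5, against 17.3 to 21.8 CPM untreated (2.39 ± 0.23, adjusted p = 4.45e-05).

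Formative epiblast genes, which mark the state just before gastrulation, were mostly negative, with 9 of 17 negative and 2 positive and a median of -0.63. Otx2 fell with doxycycline from 105 and 101 CPM to 52.8 and 54.7 CPM and rose without it from 106 and 104 CPM to 134 and 123 CPM (-1.24 ± 0.13). Fgf5 moved from 110 and 114 CPM to 96.4 and 93.4 CPM treated and from 104 and 102 CPM to 162 and 166 CPM untreated (-0.91 ± 0.12). The fall of Otx2 is the larger part of its difference, and the untreated rise is the larger part for Fgf5. In 1 of the 2 positive formative genes, Dnmt3a, neither day change was called, and 1 positive call remained without any 1 of the 6 libraries outside the treated day 2 group. Naive pluripotency genes were split, 4 positive and 4 negative of 22 (7 and 7 without treated day 2 replicate 2, and 2 and 2 without untreated day 2 replicate 2), and 15 of them fell with doxycycline and 14 without it.

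The signalling lists other than FGF had smaller shares of called genes. BMP pathway genes were positive in 6 of 21 and negative in none, with a median of 0.83. At unadjusted p under 0.05, 1 was negative, with 0 in DESeq2 and limma-voom, and without treated day 2 replicate 2 there were 11 positive and 1 negative. Id1, a BMP target that blocks helix-loop-helix factors, was at 72.8 and 81 CPM untreated and 69.9 and 41.0 CPM treated at day 2, and at 39.9 and 46.6 CPM and 83.5 and 91.8 CPM at day 2.5 (1.49 ± 0.26, adjusted p = 0.00377). Its treated libraries were below the untreated ones at day 2, a difference that was not called, and above them at day 2.5. Smad5, a signal transducer of BMP, went from 70.7 and 94.9 CPM to 187 and 189 CPM with doxycycline, against 73.1 to 83.5 CPM untreated (1.04 ± 0.17). Wnt pathway genes were negative in 9 and positive in 3 of 32, with a median of 0.07. The 3 became 8 without treated day 2 replicate 2 and 1 without any of the 6 libraries outside that group. Fzd10, a Wnt receptor, was among the positive ones, at 37.5 and 35.9 CPM treated at day 2, below the untreated 68.1 and 72.2 CPM, and at 89.8 and 90.8 CPM treated at day 2.5, beside the untreated 77.9 and 82.9 CPM. Its doxycycline effect was called at day 2 and not at day 2.5 (0.17, adjusted p = 0.198). Nodal and activin genes were negative in 4 of 17, among them Fst, the Nodal inhibitor Lefty2 (-1.69 ± 0.19) and the Nodal coreceptor Tdgf1 (-1.58 ± 0.12), and positive in 2, which were 4 without treated day 2 replicate 2 and 0 without any of the 6 libraries outside that group.

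Notch pathway genes were positive in 5 of 16 and negative in 1, with a median of 0.27. The 5 were 2 without treated day 2.5 replicate 1 and 3 without either untreated day 2 or either untreated day 2.5 library. Hey1, a Notch target, went from 7.89 and 9.53 CPM to 23.8 and 24.7 CPM with doxycycline and from 12.8 and 11.7 CPM to 8.71 and 10 CPM without it (1.87 ± 0.23, adjusted p = 0.000286). The receptor Notch1 rose with doxycycline and fell without it (1.13 ± 0.15), and the ligand Dll3 fell with it (-1.46 ± 0.22). In the chromatin-remodelling SWI/SNF list 2 of 19 were positive. Smarca2, its ATPase BRM, was at 9.31 and 7.82 CPM untreated and 9.43 and 11.3 CPM treated at day 2, and at 8.67 and 10.5 CPM and 105 and 108 CPM at day 2.5 (3.20 ± 0.21, adjusted p = 2.55e-06). Only its treated day 2.5 libraries were high. The 2 became 7 without treated day 2 replicate 2 and 1 without any of the 6 libraries outside that group.

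The remaining lists are given by count, to be read against the 6.07% and 4.37% of all genes. Positive and negative calls were 2 and 2 of 16 cardiac and lateral mesoderm genes, 3 and 2 of 14 adhesion and epithelial-to-mesenchymal transition genes, 2 and 0 of 9 neuroectoderm genes, 2 and 2 of 13 definitive endoderm genes, and 5 and 1 of 12 extraembryonic endoderm genes. They were 1 and 2 of 7 smooth muscle genes, 1 and 3 of 19 immediate early genes, 3 and 1 of 22 hypoxia and glycolysis genes, 0 and 2 of 15 integrated stress response genes, 2 and 3 of 23 cell cycle genes, 3 and 1 of 14 p53 targets and 1 and 1 of 13 housekeeping genes. The positive extraembryonic endoderm genes included Sox7, given above as a factor of nascent endothelium. The markers Afp, Ttr, Amn, Cubn and Hnf4a summed to 3.13 to 6.79 CPM untreated and 2.89 to 6.16 CPM treated at day 2. At day 2.5 they summed to 1.42 to 1.97 CPM untreated and 1.74 to 2.29 CPM treated. The study's own qPCR panel had 5 and 0 of 13, and as a list chosen by the study it is no independent evidence. No negative call was made by DESeq2 or limma-voom in the neuroectoderm and qPCR lists and no positive one in the stress response list, where 0, 0 and 2 genes had an unadjusted p under 0.05. With a library left out, the counts of most of these lists moved by over 1.5 times. Tbx20, a T-box factor of heart mesoderm, was the largest positive cardiac call, from 4.81 and 7.36 CPM to 35.9 and 36.7 CPM with doxycycline and from 4.10 and 3.56 CPM to 3.43 and 3.81 CPM without it (2.66 ± 0.30). Pdgfra, a receptor of paraxial and cardiac mesoderm, was negative, from 13.1 and 15.8 CPM to 6.78 and 5.15 CPM with doxycycline and from 23.4 and 22.1 CPM to 27.3 and 33.0 CPM without it (-1.68 ± 0.24).

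**Figure D4:**
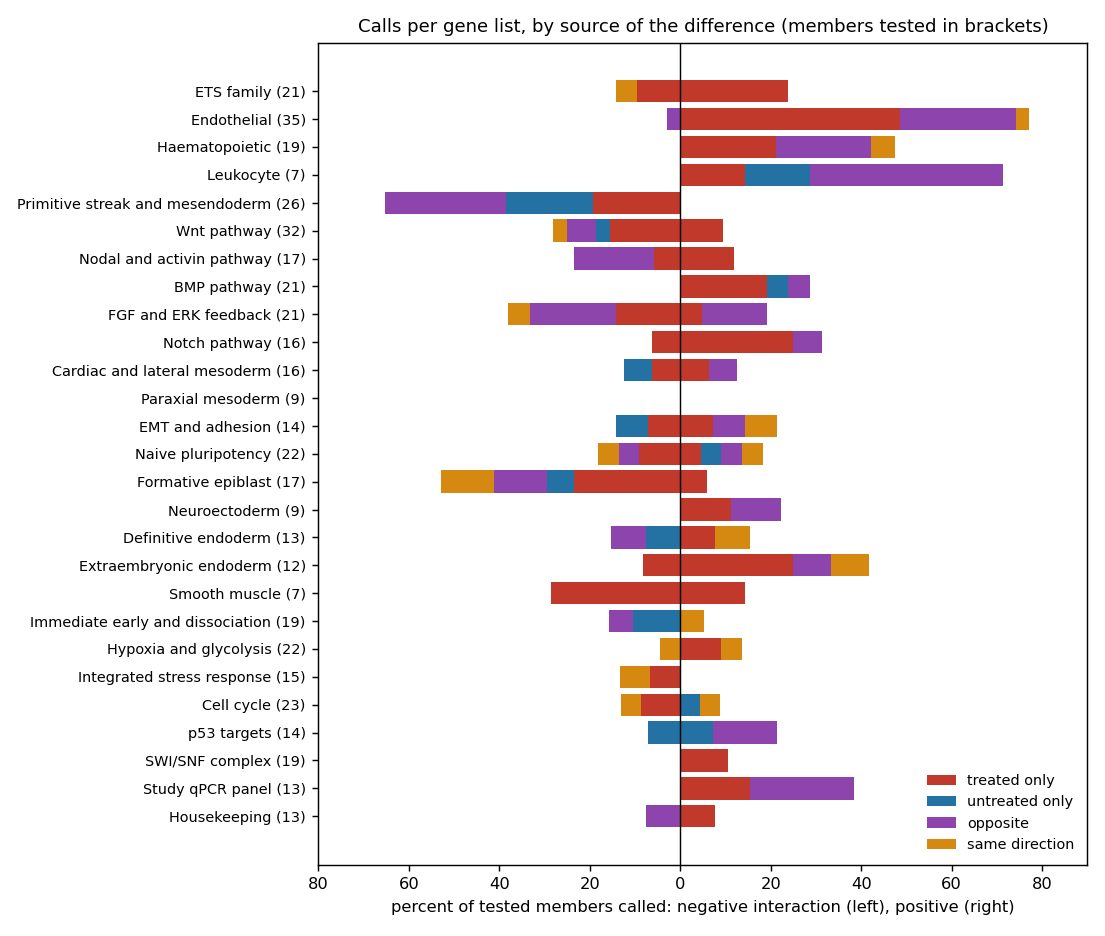
Bars give, for each gene list, the percentage of its tested members called in the interaction, positive to the right and negative to the left, coloured by whether the treated, the untreated or both day changes were called. The endothelial list (27 of 35 positive) and the streak list (17 of 26 negative) extend furthest among lists of over 10 genes, and Dnmt3a, with neither change called, is not drawn.

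Markers of other tissues that the cultures could hold give the level of mixing. Summed CPM of 4 leukocyte markers was between 0 and 0.770 in every library, and 1 of the 4 was at 0 in all 8. Leukocyte-list genes outside these markers were nevertheless positive in 5 of 7 (3 without untreated day 2 replicate 1, treated day 2.5 replicate 2 or untreated day 2.5 replicate 2), among them Rcsd1, given by counts above, and Lcp1, an actin bundler with the smallest adjusted p of the list, at 14.2 and 17.2 CPM treated at day 2 and 94.9 and 106 CPM treated at day 2.5 (2.54 ± 0.25). Of the 7, 4 had at least 10 counts in each group. The called Rcsd1 and Was did not, and Was had 28, 24, 6 and 135 counts in the order used for Rcsd1. A gene can pass the count filter through 1 group alone, so the 5 of 7 describes the tested members only. Fibroblast markers summed to between 25.9 and 44.8 CPM, and all but the untreated day 2 libraries overlapped. Thy1 had the most counts of these markers in every library, with 897 and 1140 in the treated day 2.5 libraries. Dcn, Lum and Postn had 15 counts or fewer in every library. Endothelium markers summed to 47.8 to 51.4 CPM untreated and 121 to 170 CPM treated at day 2, and to 13.3 to 14.3 CPM and 460 to 498 CPM at day 2.5. The 6 embryoid body markers, all detected, summed to 2708 to 2828 CPM, 2540 to 2898 CPM, 3699 to 3960 CPM and 1611 to 1668 CPM in the same order. Most of the treated day 2.5 endothelium sum was Kdr, at 401 and 429 CPM. Cdh5 and Tek also rose with doxycycline between the days. Pecam1 did not: it had 335 and 232 treated counts at day 2 and 257 and 334 at day 2.5, in larger libraries. Its untreated counts were 342 and 320, then 142 and 108. Emcn had 14 and 7 counts in the treated day 2.5 libraries and 0 in every other library. The part of these marker sets in the results was not tested.

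The doxycycline effects on the 2 days can also be set side by side. Doxycycline raised 376 genes (2.63%) and lowered 195 (1.36%) at day 2, and raised 2202 (15.4%) and lowered 1846 (12.9%) at day 2.5. Of the 376 raised at day 2, 280 (74.5%) were raised at day 2.5 as well, and 249 had no called interaction. Of the 195 lowered at day 2, 126 (64.6%) were lowered at day 2.5 as well, and 126 had no called interaction. An interaction that was not called does not show equal effects on the 2 days.

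A small set reversed. In 18 genes, singled out after their values were seen, the effect of doxycycline and the interaction were called on both days with opposite signs of the effect. In 10 genes doxycycline raised the level at day 2 and lowered it at day 2.5: Dusp6, Mixl1, Pim1, Pou3f1, Prr5, Six2, Spry2, Spry4, Tiparp and Zyx. The feedback inhibitors of ERK signalling Dusp6, Spry2 and Spry4 stand among these 10. Spry2 was at 121 and 123 CPM untreated and 173 and 188 CPM treated at day 2, and at 141 and 138 CPM and 87.0 and 81.5 CPM at day 2.5 (-1.30 ± 0.12, adjusted p = 4.05e-05). Pou3f1, a POU factor of the epiblast, was at 61.8 and 61.2 CPM, 107 and 79.3 CPM, 37.1 and 33.5 CPM, and 26.4 and 26.9 CPM in the same order. Its level fell in both arms, so the sign of its doxycycline effect changed through a steeper treated fall.

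In the other 8 genes, Adcy1, Chst15, Efnb2, Kdm3a, Klf13, Narf, Zeb2 and Zfp516, doxycycline lowered the level at day 2 and raised it at day 2.5. Exon lengths of these 8 ran from 4806 bases (Narf) to 19942 (Zeb2), and of the 10 above from 1917 (Prr5) to 5390 (Zyx). Over 14174 genes of known length, the interaction had a rank correlation of 0.212 with exon length. The part of exon length in the reversals was not tested. Efnb2, the ephrin-B2 ligand of arterial endothelium, was at 66.4 and 65.6 CPM untreated and 27.9 and 33.3 CPM treated at day 2, and at 62.1 and 57.0 CPM and 95.7 and 104 CPM at day 2.5 (1.86 ± 0.15, adjusted p = 1.29e-05). Zeb2, a zinc-finger repressor of epithelial genes, was at 17.1 and 14.3 CPM, 7.42 and 11.4 CPM, 24.5 and 24.6 CPM, and 48.5 and 49.1 CPM in the same order (1.74 ± 0.24, adjusted p = 0.000738). In both genes the treated and untreated libraries did not overlap on either day. The interaction of Kdm3a was not called without untreated day 2 replicate 2 or treated day 2.5 replicate 2 (adjusted p = 0.0552 and 0.0664), and that of Zfp516 without any of 4 libraries (adjusted p from 0.0528 to 0.0771). The set changed with the libraries used, from 3 to 155 genes in the first direction and from 1 to 261 in the second, the highest numbers being those without treated day 2 replicate 2.

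**Figure D5:**
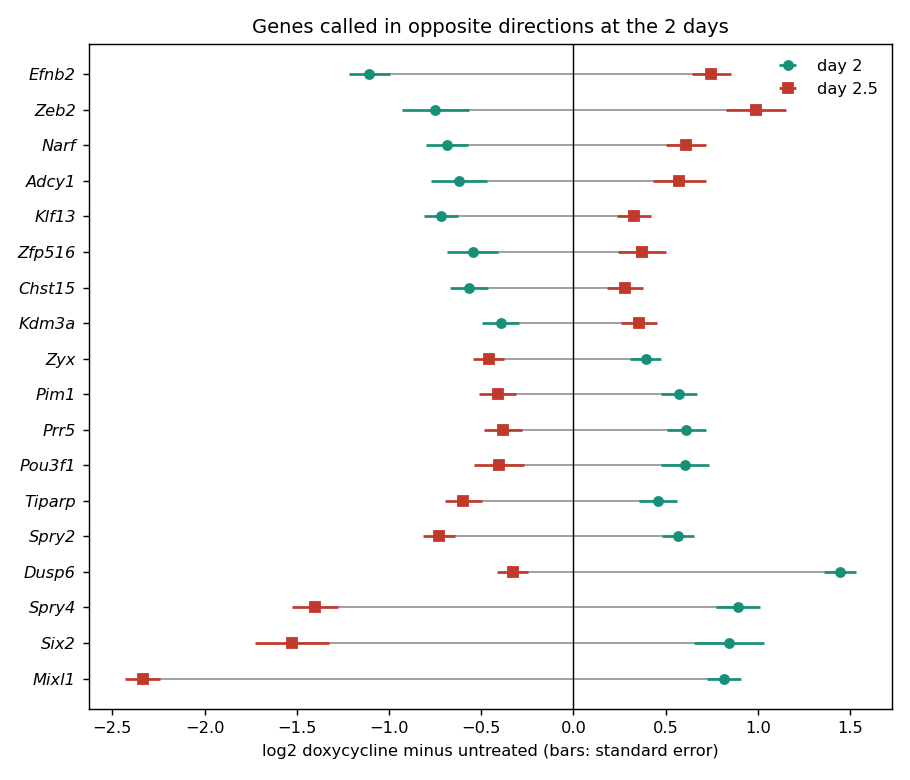
For the 18 genes, points give the log2 difference of treated from untreated cultures at day 2 and at day 2.5, with bars of 1 approximate standard error. Each gene lies on one side of 0 at day 2 and on the other at day 2.5, from Mixl1 (0.82, then -2.34) to Efnb2.

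Promoter windows were read for the genes plotted by level where the RefSeq table held them, as the 250 bases before the start of a transcript on build GRCm38.p6. Windows were found for 6 of the 12 genes. They were searched on both strands for the ETS letters AGGAAG and for a joint forkhead and ETS motif that can overlap it, AACAGGAA. The search also covered the GATA letters AGATAA, the T-box letters AGGTGTGA and the TCF letters CTTTGAT. The windows of Gata2, Kdr, Eomes and T held no match. A window each of Tal1 and Dusp6, a rising and a falling gene, held 1 match, shown in capitals. In Tal1 the capitals are AGATAA on the minus strand, and in Dusp6 they are AGGAAG on the minus strand.
Tal1, chr4:115056176-115056425, plus strand: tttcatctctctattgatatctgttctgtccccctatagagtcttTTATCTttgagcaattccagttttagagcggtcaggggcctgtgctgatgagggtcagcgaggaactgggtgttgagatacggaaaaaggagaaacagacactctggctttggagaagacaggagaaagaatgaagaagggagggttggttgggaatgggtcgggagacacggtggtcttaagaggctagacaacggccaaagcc
Dusp6, chr10:99262981-99263230, plus strand: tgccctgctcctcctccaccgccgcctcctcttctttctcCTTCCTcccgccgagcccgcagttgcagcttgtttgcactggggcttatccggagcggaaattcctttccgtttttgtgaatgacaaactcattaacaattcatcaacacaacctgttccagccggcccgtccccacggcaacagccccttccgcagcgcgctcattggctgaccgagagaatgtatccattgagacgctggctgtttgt
AGGAAG was in 27.4% of the promoter windows of all genes tested and in 28.5% and 28.4% of those of positive and negative genes with only a treated change called. For positive and negative genes with only an untreated change called it was in 32% and 29.3%, and with opposite changes in 33.3% and 24.6%. AACAGGAA was in 1.77% of all windows, and in 2.28% and 2.93% with only a treated change called. With opposite changes it was in 4 of 96 windows (4.17%) and 1 of 57 (1.75%). AGATAA was in 5.68% of all windows and in 5.85% of those of positive genes with only a treated change called. With opposite changes it was in 7.29% and 8.77%. Of the genes tested, 11064 had a window, and the shares were not compared by a test. A match describes letters in this window and says nothing of binding.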

How the data were processed

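Total RNA of iHA-Etv2 embryoid bodies was sequenced. TopHat, HTSeq, DESeq2 and the build mm10 are named, without roles or versions, per the submitters' processing notes. The deposited table holds whole-number counts per gene, made by the authors before any normalization. Neither the annotation nor the strand setting is given in the sources used here, so overlapping and antisense genes may share reads. Of 23429 rows, 92 spike-in rows held 0 counts and were removed. Of the remaining 23337 genes 5054 were at 0 in all 8 libraries.

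Counts were tested with edgeR 4.0.16 (R 4.3.3): TMM factors, filterByExpr (minimum count 10, minimum total 15), robust quasi-likelihood fit with 1 mean per group over 8 libraries, 4 residual degrees of freedom, Benjamini-Hochberg adjustment over 14311 genes for each of 5 comparisons. The common biological coefficient of variation was 10.5%. The fit and class assignment were also run on simulated counts with changes planted in a day 2.5 group. Those counts held no exon length trend between the treated day 2 replicates, so the run cannot tell what that trend does to the calls. DESeq2 1.42.0 and limma-voom (limma 3.58.1) were alternatives, with other scaling, a fit of all 10 libraries, other filters, thinning, each library left out and, added after seeing the data, removal of length and GC trends. Zero counts allow up to 3 counts, 0.0817 to 0.162 CPM, for counting error only. The labels do not say that replicates are separate cultures, so p-values measure variation among these samples only, possibly technical variation.

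Members and gene lists (27, sharing some genes; 461 genes, 420 tested) were chosen with earlier results of these data known. Genes were named by rule: Etv2 and Kdr; of called genes with at least 5 CPM in the highest group and 10 counts in each group, those with the largest interaction in each source group (6 for treated only and untreated only, 4 for the others); 6 called genes under 10 counts in a group, by counts; up to 4 per list by p; and the genes next to the threshold. Coordinates are from GENCODE vM21 (GRCm38), promoter windows from RefSeq GRCm38.p6.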

Additional observations from a re-analysis of the deposited data

Results flagged for a closer look

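The effect of doxycycline differed between the days, by the interaction test, in 869 genes with a positive and 626 with a negative difference. The 2 numbers were 923 and 791 in DESeq2, 851 and 638 in limma-voom, and 752 and 638 after thinning. They were 1056 and 1013 without a filter on low counts, and 1158 and 1148 with length and GC trends removed. The called genes nearest to the threshold were Dedd and Gars, with interactions of -0.47 and -0.41, and the nearest ones not called were Uap1l1 and Lgals1, with 0.57 and -0.59.

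In 18 genes doxycycline had called effects of opposite sign on the 2 days. Lower with doxycycline at day 2.5 after being higher at day 2 were, with their log2 interactions, Mixl1 (-3.15), Six2 (-2.37), Spry4 (-2.29), Dusp6 (-1.77), Spry2 (-1.3), Tiparp (-1.06), Pou3f1 (-1.01), Prr5 (-0.99), Pim1 (-0.98) and Zyx (-0.85). Higher at day 2.5 after being lower at day 2 were Efnb2 (1.86), Zeb2 (1.74), Narf (1.29), Adcy1 (1.2), Klf13 (1.04), Zfp516 (0.92), Chst15 (0.85) and Kdm3a (0.75). Of these 18, Mixl1, Dusp6, Prr5, Zyx and Klf13 had called day changes of opposite direction in treated and untreated cultures.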

How the results depend on the processing

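Changes of sign were counted only for interactions called with all 8 libraries or in the alternative setting. None was found in 2820 values of the 157 named or reversing genes. Of these values 2552 stayed on the same side of the threshold, 230 lost and 38 gained a call. With each library left out in turn, the lowest and highest counts were as follows. Interaction: 353 to 2199 positive and 213 to 2108 negative. Day change with doxycycline: 2080 to 3995 higher and 2003 to 3784 lower, and without it 180 to 2581 and 166 to 2409. Doxycycline at day 2: 133 to 1179 and 47 to 1539, and at day 2.5 1261 to 2894 and 922 to 3338. Positive and negative genes with only a treated change: 283 to 1242 and 147 to 991, with only an untreated change 11 to 166 and 10 to 371, with opposite changes 15 to 170 and 13 to 193, with changes in the same direction 5 to 573 and 4 to 677, and with neither change called 3 to 99. Opposite signs on the log2 and CPM scales: 0 to 4. The cause of these shifts was not tested.

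Without a filter on low counts, 1056 genes were positive and 1013 negative, and 346 were lower with doxycycline at day 2. There, 641 negative genes had only a treated change, 70 positive and 135 negative only an untreated change, 124 and 135 changes in the same direction and 60 neither. With length and GC trends removed, 1158 genes were positive and 1148 negative. In that setting 1858 rose without doxycycline, and 618 were higher and 385 lower with it at day 2. There, 670 negative genes had only a treated change, 89 and 148 only an untreated change, 93 negative opposite changes, and 150 and 217 changes in the same direction. DESeq2 gave 44 genes with neither change called, limma-voom 50 positive genes with opposite changes, and sorting by size 46 negative genes as untreated. The cause was not tested.

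With the replicate number as a block, 848 genes were positive and 606 negative, of which 1388 (92.8% of those called without it) were shared. The numbers did not pair the samples: deviations of same-numbered samples had correlations of -0.049 to 0.096 over 6 pairs of groups. Depth limits the genes with under 10 counts in a group, whose levels are given as counts.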

Other observations

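The 2 Flk1-positive libraries of treated day 2.5 cultures, in none of the groups compared above and used only in the alternative fit of all 10 libraries, give values beside the treated day 2.5 libraries when all 10 libraries are scaled together. Kdr, whose product was the sorting marker, was at 1013 and 992.5 CPM against 404.8 and 433.1 CPM. Etv2 was at 325 and 305.3 CPM against 271.6 and 255.2 CPM. Among genes with a positive interaction, Gata2 was at 551.8 and 481.9 CPM, Tal1 at 665.1 and 644.3 CPM and Lmo2 at 592.7 and 594 CPM, against 175.8 and 184 CPM, 176.8 and 190.4 CPM, and 310.2 and 306 CPM. Pdk1, a kinase that inhibits pyruvate dehydrogenase and also had a positive interaction, was lower, at 169.1 and 166.2 CPM against 341.3 and 348.9 CPM. Among genes with a negative interaction, Eomes was at 124.1 and 131 CPM against 336.1 and 333 CPM, Mixl1 at 38.82 and 34.12 CPM against 99.55 and 89.47 CPM, and Etv4 at 2.657 and 2.506 CPM against 8.488 and 9.877 CPM. T, also with a negative interaction, was higher in the Flk1-positive libraries, at 579.7 and 549.1 CPM against 367.9 and 355.8 CPM. These genes were picked after their values were seen, they stand for no larger set, and no test was made of these differences.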
